A study of Mus musculus with 6 samples.

Results

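The genes described here encode the ephrins, semaphorins, Slits and netrins and their receptors, cues that steer cells and nerve fibres by contact or over a distance. They were found by matching gene symbols on the array to these family names, which gave 66 genes on 76 probes, of 19084 genes on 26423 probes in all. By role they are 35 ligands and 31 receptors. The Eph receptor Ephb2 had no probe with its symbol and was not analysed here.

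Expression was measured in ICR mouse cells on 6 single-colour (Cy5) arrays that form 3 groups of 2. GSC colony RNA came from testicular cells of 80 mice at newborn to P2 that had formed colonies during 7 days in 5% O2. PGC colony RNA came from gonadal cells of 67 embryos at E11.5 grown for the same 7 days in 5% O2. CD49f+ sorted RNA came from testicular cells of 100 mice of the same newborn to P2 stage, pulled out with magnetic beads through an antibody to CD49f (the integrin subunit encoded by Itga6) and not cultured; their labels give physiological hypoxia and no oxygen value. The colonies were grown from unsorted cells on laminin at 200 ng/cm2 with EGF at 10 ng/ml, and were picked before extraction. The labels call GSCs glandular stem cells and PGCs primordial germ cells. Animals were pooled, and the embryos' sex is unstated. Nothing in the labels tells whether both arrays of a group are separate preparations, so p-values measure only the spread between arrays, which may be technical. Culture and sorting differ together between colonies and sorted cells and cannot be told apart, and PGC colonies differ from sorted cells in stage and tissue as well.

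Ephrins are membrane-bound ligands: the A type is held by a lipid anchor and the B type spans the membrane, and both signal through Eph receptor tyrosine kinases when cells touch. Class 3 semaphorins are secreted and act through neuropilins paired with plexins, while classes 4 to 7 are membrane-attached and mostly bind plexins directly. Slits are secreted ligands of Robo receptors, and netrins are laminin-like ligands of Unc5 receptors and of Dcc and Neo1. Outside the nervous system these families take part in the sorting of cell populations, blood vessel patterning and the migration of mesenchymal and immune cells.

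Of the 66 genes, 59 were bright enough to be tested, meaning that their level reached the array's 30th percentile on 2 or more of the 6 arrays. That level was 7.82 on the normalized log2 scale. Epha10, Robo3, Sema3f, Sema6c, Slit3, Unc5a and Unc5d were not tested, and their values lay between 5.99 and 8.16. Levels of different genes are not set against each other, since each comes from its own probe. Differences are given in log2 units ± SE, n is 2 arrays per group, and a gene was called at a limma adjusted p under 0.05 over all 15459 genes tested.

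Median deposited intensity was 558 to 606 on GSC colony arrays, 393 to 406 on sorted arrays and 541 to 587 on PGC colony arrays. Germ cell markers were mixed. Of 16 on the array, 12 were tested, and 7 were higher and 1 lower in GSC colonies than in sorted cells; Nanos2 lay between 10.76 and 11.16 and Ddx4 between 9.72 and 10.27 over all arrays. Dppa3, Sycp3, Ret and Piwil4 lay under the 30th percentile on every array, Zbtb16 and Sohlh1 did so in sorted cells and PGC colonies, and Dazl did so in PGC colonies. Zbtb16 measured 10.47 and 10.43 in GSC colonies, and was at least 6.17-fold higher there than in sorted cells. Zbtb16 and Sohlh1 were tested only because both GSC colony arrays reached the 30th percentile. Their calls, counted here and below, are therefore no support. The summed normalized intensity of 16 germ cell markers was 12400 to 13600 units in GSC colonies, 8530 to 8790 in sorted cells and 8760 to 8870 in PGC colonies. For 15 fibroblast and mesenchyme markers the sum was 661000 to 665000 in GSC colonies, 433000 to 435000 in PGC colonies and 131000 to 148000 in sorted cells. For 14 macrophage and leukocyte markers it was 161000 on both sorted arrays, 6150 to 6660 in GSC colonies and 13800 to 15900 in PGC colonies, and 13 Sertoli markers summed to 912000 to 972000, 305000 and 254000 to 277000 in sorted cells, GSC colonies and PGC colonies. Each sum is set only against the same sum in other groups, and the brightest probes weigh most in it. Clu, the brightest Sertoli marker, measured 17.78 and 17.74 in GSC colonies and 18.09 on both sorted arrays. It did not pass in GSC colonies against sorted cells (-0.33 ± 0.11). The other 12 of 13 Sertoli markers fell there, by up to 7.88 log2 units (Cst9). In such bulk samples, fewer cells of a type and less RNA per cell cannot be told apart.

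Both kinds of colony differed from sorted cells in most of the guidance genes. In GSC colonies 20 of 59 genes were higher than in sorted cells and 18 lower, or 64.4%, beside 47.1% of all genes tested (22.5% higher and 24.5% lower). In PGC colonies 24 were higher and 14 lower, again 64.4%, beside 46% of all genes (22.8% higher and 23.2% lower). These comparisons share the sorted arrays. Of the genes counted, Sema4f and Ntn4 were tested only because both arrays of the group where they were highest (PGC and GSC colonies) reached the 30th percentile, so their calls are no support and only their values are given below. The median difference of the 59 genes was 0.23 in GSC and 0.24 in PGC colonies against sorted cells, beside -0.01 and -0.02 over all genes. Without normalization between arrays the splits became 34 higher and 10 lower in GSC and 34 higher and 8 lower in PGC colonies, while the median of all genes itself moved to 0.47 and 0.42. Relative to that shift no called gene changed its sign, and before subtracting it Ephb1 did, from -0.41 to 0.11 in GSC colonies. In the comparison with GSC colonies 31 of 38 calls, and in that with PGC colonies 29 of 38, held whichever array was left out, where still tested.

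**Figure D1:**
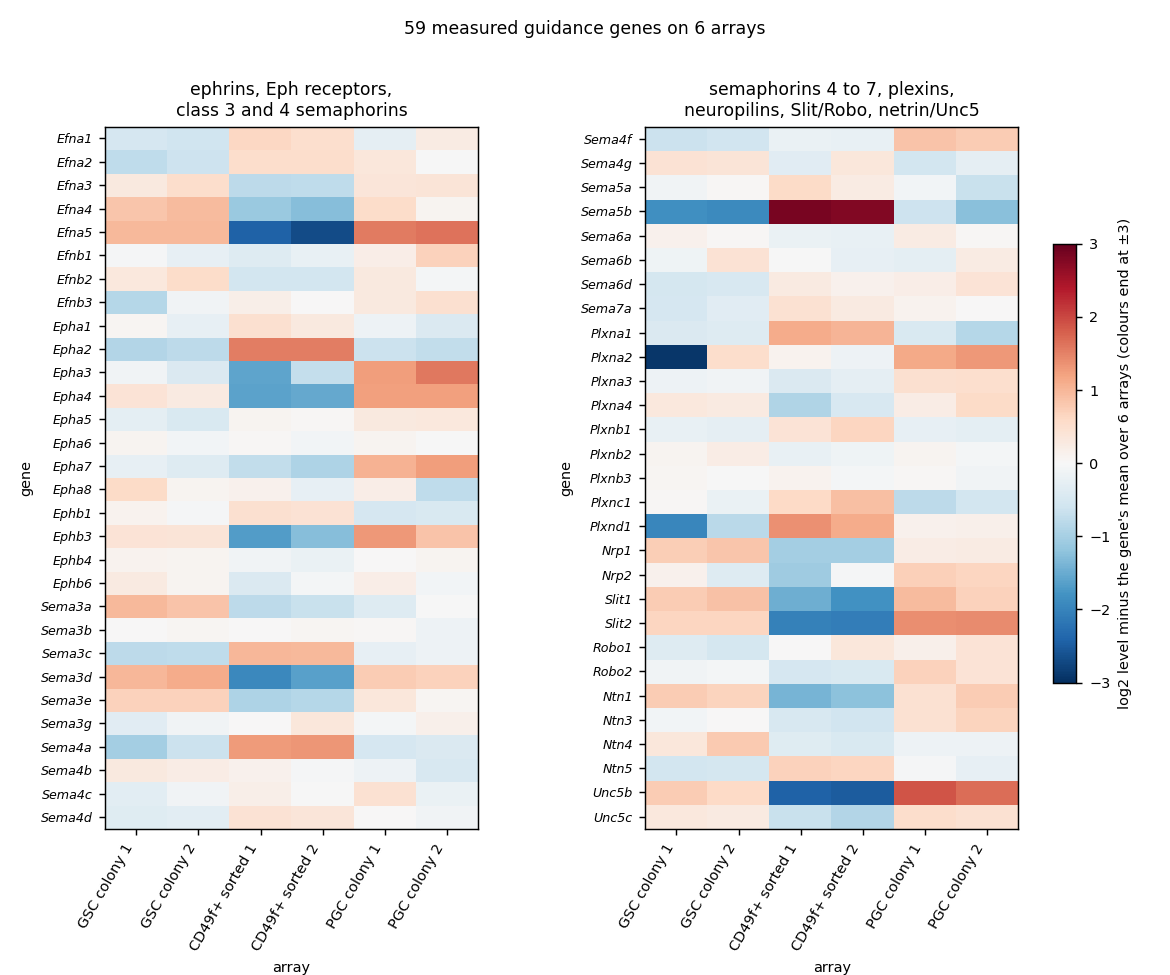
Normalized log2 level of each of the 59 tested guidance genes (rows) on each of the 6 arrays (columns), minus the gene's mean over the 6 arrays; red is above and blue below that mean, and colours end at 3. Sema5b, Epha2 and Sema4a are red on both sorted arrays and blue on all colony arrays, Efna5, Unc5b and Slit2 show the reverse, and Plxna2 is deep blue on GSC colony replicate 1 but not on replicate 2.

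The sequences below are shown because these genes had some of the largest differences from sorted cells in both kinds of colony: Unc5b, Slit2 and Efna5 were higher there, and Sema5b and Epha2 lower. Each is the 250 bases just before the gene's start in RefSeq (GRCm38.p6), printed 5′ to 3′ on the gene's strand. The windows are chr10:60831582-60831831 on the minus strand for Unc5b, chr5:47982905-47983154 on the plus strand for Slit2, chr17:62881318-62881567 on the minus strand for Efna5, chr16:35541112-35541361 on the plus strand for Sema5b and chr4:141300971-141301220 on the plus strand for Epha2. Capitals mark matches, on either strand, to the GC box GGGCGG, the hypoxia response core ACGTG, the CCAAT box CCAAT, the AP-1 motif TGANTCA or the TATA box TATAAA; none of these contains another.
Unc5b: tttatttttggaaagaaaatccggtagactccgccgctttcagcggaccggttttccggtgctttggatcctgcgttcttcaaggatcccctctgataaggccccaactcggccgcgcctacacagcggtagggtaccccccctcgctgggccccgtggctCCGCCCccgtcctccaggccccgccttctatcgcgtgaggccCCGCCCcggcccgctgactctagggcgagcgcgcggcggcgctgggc
Slit2: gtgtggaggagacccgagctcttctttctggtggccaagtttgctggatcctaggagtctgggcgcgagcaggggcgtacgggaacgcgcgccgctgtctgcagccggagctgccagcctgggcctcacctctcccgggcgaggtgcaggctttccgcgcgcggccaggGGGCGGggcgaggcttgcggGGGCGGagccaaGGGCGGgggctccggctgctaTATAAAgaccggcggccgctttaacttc
Efna5: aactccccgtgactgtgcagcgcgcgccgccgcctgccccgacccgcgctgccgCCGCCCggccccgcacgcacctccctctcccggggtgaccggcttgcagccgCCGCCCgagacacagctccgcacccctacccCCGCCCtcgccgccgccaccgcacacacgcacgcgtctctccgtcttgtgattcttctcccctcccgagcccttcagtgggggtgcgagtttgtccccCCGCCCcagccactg
Sema5b: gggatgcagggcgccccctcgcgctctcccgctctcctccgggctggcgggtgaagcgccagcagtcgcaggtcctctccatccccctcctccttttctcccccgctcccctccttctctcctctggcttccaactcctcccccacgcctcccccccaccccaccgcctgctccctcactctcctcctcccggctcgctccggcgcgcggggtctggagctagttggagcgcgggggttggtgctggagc
Epha2: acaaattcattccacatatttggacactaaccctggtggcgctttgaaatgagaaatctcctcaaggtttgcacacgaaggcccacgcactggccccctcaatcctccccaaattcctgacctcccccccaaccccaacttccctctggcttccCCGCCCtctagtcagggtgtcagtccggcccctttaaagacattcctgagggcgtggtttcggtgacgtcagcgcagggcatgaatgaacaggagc

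Unc5b held 2 GC boxes, Slit2 held 3 and a TATA box, Efna5 held 4 and Epha2 held 1, whereas Sema5b held none of the 5 motifs. The hypoxia response core was in none of these 5 windows, which says only that these letters are not there. RefSeq windows were found for 57 of the 66 guidance genes, with 73 starts. The GC box was in 72.6% of them, beside 51.5% of 15374 windows of genes tested on these arrays and 32.7% of all 32851 windows. The hypoxia core was in 16.4% (19.9% for genes tested, 16.6% for all), CCAAT in 24.7% (34.5% and 33.8%), the AP-1 motif in 4.11% (5.39% and 6.75%) and the TATA box in 2.74% (8.57% and 12.4%). Windows of genes higher in GSC colonies than in sorted cells held a median of 16 CG pairs and those of genes lower there 10.5, beside 15 over all 73 guidance windows and 13 over genes tested. Those of genes not called held a median of 16.5. A GC box was in 14 of 21 windows of the first kind, in 15 of 24 of the second and in 19 of 22 of genes not called. For 12 genes the table holds several starts, which were counted separately.

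Among the ephrins, the ligands of Eph receptors, the A type split by gene. Efna5, which encodes ephrin-A5, measured 11.68 on both GSC colony arrays, 8.28 and 8.01 on sorted arrays, and 12.25 and 12.33 on PGC colony arrays. Every colony array lay more than 3 log2 units above both sorted arrays. Efna5 was 11.6-fold higher in GSC colonies (log2 difference 3.53 ± 0.13, limma adjusted p = 5.7e-06) and 17.7-fold higher in PGC colonies (4.15 ± 0.13, limma adjusted p = 5.2e-06). Its other probe, from a fit of every probe as its own row as for all second probes here, gave 3.26 ± 0.18 and 3.95 ± 0.18. On that probe the sorted arrays measured 6.94 and 7.02, under the 30th percentile, so only its direction is read. Efna4, another A-type ligand, measured 11.24 and 11.35 in GSC colonies, 9.28 and 9.12 in sorted cells, and 10.95 and 10.49 in PGC colonies. The sorted pair lay below all 4 colony arrays, and Efna4 rose by 2.10 ± 0.17 in GSC and 1.52 ± 0.17 in PGC colonies. Efna3 was under the 30th percentile on both sorted arrays, at 7.51 and 7.54, and was at least 1.85-fold higher in GSC and at least 1.80-fold higher in PGC colonies.

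Efna1 and Efna2 ran the other way. Efna1, the best known ligand of the receptor EphA2, measured 10.55 and 10.45 in GSC colonies, 11.67 and 11.55 in sorted cells, and 10.79 and 11.29 in PGC colonies. Sorted cells were the highest group, and the GSC difference of -1.10 ± 0.18 was called (limma adjusted p = 0.0029). The PGC difference of -0.57 ± 0.18 was called too (limma adjusted p = 0.042), though it was -0.32 and not called without PGC colony replicate 1, and it also lost its call without either sorted array and without normalization between arrays. Efna2 measured 10.45 and 10.59 in GSC colonies, 11.74 and 11.73 in sorted cells, and 11.55 and 11.19 in PGC colonies, with GSC colonies the low group. It fell by 1.21 ± 0.15 in GSC colonies and differed by -0.37 ± 0.15 in PGC colonies (limma adjusted p = 0.091). Of the B type, Efnb2, the ephrin of arterial endothelium, rose by 0.98 ± 0.15 in GSC and 0.68 ± 0.15 in PGC colonies, the latter call being lost without either sorted array. Efnb1, the X-linked ephrin-B1 gene, rose in PGC colonies by 0.75 ± 0.18, a call lost without sorted replicate 1 or PGC colony replicate 2, and differed in GSC colonies by 0.17 ± 0.18. Efnb3 did not pass in either, at -0.57 ± 0.24 and 0.29 ± 0.24.

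Among the Eph receptors, Epha2 fell and Epha4 and Ephb3 rose in both kinds of colony. Epha2, a receptor of epithelia and early embryonic cells, measured 10.28 and 10.36 in GSC colonies, 12.68 and 12.69 in sorted cells, and 10.49 and 10.40 in PGC colonies. Its colony arrays fell within a narrow band well under the sorted pair. It was 5.16-fold lower in GSC (-2.37 ± 0.10, limma adjusted p = 1.2e-05) and 4.71-fold lower in PGC colonies (-2.23 ± 0.10, limma adjusted p = 1.8e-05). Epha4, a receptor that binds both ephrin types, measured 9.89 and 9.74 in GSC colonies, 7.86 and 7.93 in sorted cells, and 10.71 on both PGC colony arrays. The 3 groups did not overlap, with sorted cells close to the 30th percentile, and Epha4 rose by 1.92 ± 0.11 and 2.81 ± 0.11 (limma adjusted p = 3.3e-05 and 9.6e-06). Ephb3 measured 10.43 and 10.41 in GSC colonies, 8.36 and 8.75 in sorted cells, and 11.33 and 10.89 in PGC colonies. It rose by 1.87 ± 0.19 and 2.55 ± 0.19.

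Epha3 and Epha7 stood highest in PGC colonies. Epha3, a receptor of ephrin-A5, measured 10.64 and 10.31 in GSC colonies, 9.18 and 10.04 in sorted cells, and 12.02 and 12.35 in PGC colonies. The sorted pair lay far apart, so the GSC difference of 0.87 ± 0.29 missed the threshold (limma adjusted p = 0.052), while PGC colonies rose by 2.57 ± 0.29 (limma adjusted p = 0.00065). Epha7, another receptor of A-type ephrins, measured 8.52 and 8.37 in GSC colonies, 8.02 and 7.84 in sorted cells, and 9.82 and 10.03 in PGC colonies. It rose by 0.51 ± 0.13 in GSC and 2.00 ± 0.13 in PGC colonies; the smaller call was lost without GSC colony replicate 1 or without sorted replicate 2. Its other probe lay below the 30th percentile and was not tested. Ephb1 measured 10.42 and 10.29 in GSC colonies, 10.79 and 10.74 in sorted cells, and 9.80 and 9.84 in PGC colonies. It fell in both kinds of colony, at -0.94 ± 0.11 in PGC colonies and -0.41 ± 0.11 in GSC colonies, the latter call being lost without any one array of either group. Epha5 fell by 0.45 ± 0.11 in GSC colonies, where replicate 2 lay under the 30th percentile. That call was lost without GSC colony replicate 2 or without either sorted array. Epha1 fell by 0.67 ± 0.16 in PGC colonies, a call lost without sorted replicate 1 or PGC colony replicate 2. The Epha5 and Epha1 calls were also lost without normalization between arrays. Epha6, Epha8, Ephb4 and Ephb6 did not pass in either comparison, with differences from -0.22 to 0.42.

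**Figure D2:**
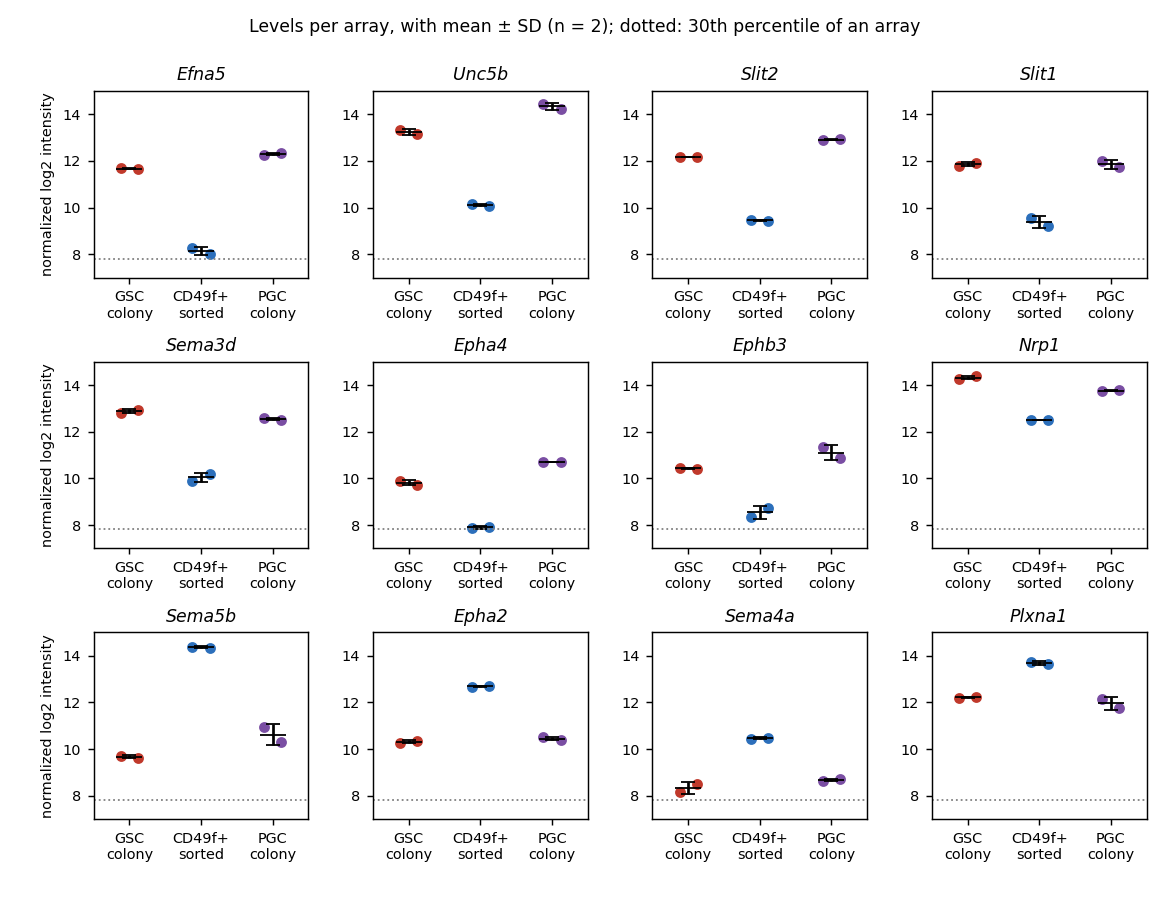
Normalized log2 intensity of 12 guidance genes; each point is 1 array (left, replicate 1; right, replicate 2), the bar and whiskers are the mean ± SD of the 2 arrays, and the dotted line is the 30th percentile of an array, 7.82. The first 8 genes have their lowest group in CD49f+ sorted cells and the last 4 their highest, and in no panel does a sorted array overlap a colony array.

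Sema5b, a transmembrane semaphorin with thrombospondin repeats, was far lower in colonies. It measured 9.72 and 9.63 in GSC colonies, 14.39 and 14.34 in sorted cells, and 10.93 and 10.29 in PGC colonies. The sorted arrays lay above every colony array by more than 3 log2 units. Sema5b was 25.8-fold lower in GSC colonies (-4.69 ± 0.21, limma adjusted p = 1.2e-05) and 13.5-fold lower in PGC colonies (-3.75 ± 0.21, limma adjusted p = 3.3e-05). Its relative Sema5a measured 12.57 and 12.72 in GSC colonies, 13.26 and 12.93 in sorted cells, and 12.59 and 12.02 in PGC colonies. It did not pass in GSC colonies (-0.45 ± 0.21, limma adjusted p = 0.14) and fell by 0.79 ± 0.21 in PGC colonies, a call lost without sorted replicate 1, without PGC colony replicate 2 (-0.50) and without normalization between arrays.

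Secreted class 3 semaphorins moved both ways. Sema3d measured 12.81 and 12.94 in GSC colonies, 9.89 and 10.18 in sorted cells, and 12.58 and 12.50 in PGC colonies. It was 7.14-fold and 5.68-fold higher in GSC and PGC colonies (2.84 ± 0.14 and 2.51 ± 0.14, limma adjusted p = 1.6e-05 and 3.1e-05). The other Sema3d probe gave rises of 0.86 ± 0.12 and 0.71 ± 0.12, so the direction was shared and the size was not. Sema3a, the classic repellent of nerve fibres, measured 9.77 and 9.66 in GSC colonies, 8.02 and 8.14 in sorted cells, and 8.42 and 8.78 in PGC colonies. GSC colonies were the high group, with a rise of 1.64 ± 0.15, and PGC colonies rose by 0.52 ± 0.15, which was 0.34 and not called without PGC colony replicate 2 and was also not called without either sorted array. Sema3e, the ligand that binds plexin D1 without a neuropilin, measured 9.35 and 9.34 in GSC colonies, 7.73 and 7.80 in sorted cells, and 8.998 and 8.71 in PGC colonies. Sorted cells were under the 30th percentile, and Sema3e was at least 2.88-fold higher in GSC and at least 2.04-fold higher in PGC colonies. Sema3c, a semaphorin of the developing heart outflow, fell: it measured 10.60 and 10.61 in GSC colonies, 12.37 and 12.35 in sorted cells, and 11.12 and 11.22 in PGC colonies. Both gaps far exceeded the spread within pairs, at -1.75 ± 0.10 and -1.19 ± 0.10. Sema3b and Sema3g did not pass, with differences from -0.41 to 0.01.

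Of the 6 class 4 semaphorins, membrane-attached ligands, 0 were called higher and 3 lower in GSC colonies, and 1 higher and 2 lower in PGC colonies; 3 of 6 is near the 47.1% and 46% of all genes. These counts include Sema4f, whose call in GSC colonies was lost without each array of the groups compared and without normalization between arrays. Sema4a, a semaphorin of immune cells, measured 8.14 and 8.50 in GSC colonies, 10.44 and 10.49 in sorted cells, and 8.65 and 8.71 in PGC colonies. It fell in both kinds of colony, at -2.14 ± 0.14 and -1.78 ± 0.14 (limma adjusted p = 6.4e-05 and 0.00015). Sema4d, known from T cells, was under the 30th percentile in GSC colonies and at least 1.46-fold lower there. In PGC colonies its difference of -0.46 ± 0.11 was called, though not without either sorted array or without normalization between arrays. Beside these, 13 of 14 macrophage and leukocyte markers fell in each comparison with sorted cells and Spi1 rose; Adgre1, C1qb, Tyrobp, Cx3cr1 and Pf4 lay under the 30th percentile in GSC colonies and Pf4 in PGC colonies. The part of leukocyte RNA in these falls was not tested. Pf4 was tested only because both sorted arrays reached the 30th percentile, so its calls are no support. Sema7a, a lipid-anchored ligand of plexin C1, fell by 0.79 ± 0.13 in GSC colonies and differed by -0.31 ± 0.13 in PGC colonies (limma adjusted p = 0.093). On its other probe the differences were -3.41 ± 0.13 and -2.12 ± 0.13 (limma adjusted p = 1.1e-05 and 6.5e-05), so the size of this difference depends on the probe. Sema6d, a transmembrane semaphorin, measured 10.97 and 10.995 in GSC colonies, 11.75 and 11.62 in sorted cells, and 11.68 and 11.89 in PGC colonies. It fell by 0.70 ± 0.12 in GSC colonies, the low group, and Sema4b, Sema4c, Sema4g, Sema6a and Sema6b did not pass in either comparison. The Sema6d and Sema7a calls in GSC colonies were lost without normalization between arrays. Sema4f measured 7.11 and 7.20 in GSC colonies, 7.57 and 7.55 in sorted cells, and 8.63 and 8.52 in PGC colonies. It was under the 30th percentile in both GSC colonies and sorted cells, so no fold is given between them, and the PGC colony arrays were the high group, at least 1.69-fold above either.

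Of the semaphorin receptors, 1 of 2 neuropilins rose in GSC colonies and both in PGC colonies, beside 22.5% and 22.8% of all genes. Nrp1, the co-receptor for class 3 semaphorins and for VEGF, measured 14.27 and 14.36 in GSC colonies, 12.49 on both sorted arrays, and 13.75 and 13.77 in PGC colonies. It rose by 1.82 ± 0.10 and 1.27 ± 0.10 (limma adjusted p = 3.1e-05 and 0.00015), and on its other probe by 1.96 ± 0.14 and 1.89 ± 0.14. Nrp2 measured 11.99 and 13.04 on the sorted arrays, a gap wider than its difference from GSC colonies (0.43 ± 0.34). Its rise of 1.23 ± 0.34 in PGC colonies was 0.71 without sorted replicate 1 and was not called without that array or without either PGC colony array.

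Of the 9 plexins, 1 rose and 4 fell in GSC colonies (55.6%), beside 47.1% of all genes tested. In PGC colonies 2 rose and 4 fell (66.7%), beside 46% of all genes. Plxna1, the partner of neuropilins in semaphorin signalling, measured 12.19 and 12.22 in GSC colonies, 13.74 and 13.63 in sorted cells, and 12.16 and 11.75 in PGC colonies. It fell in both kinds of colony, at -1.47 ± 0.16 and -1.73 ± 0.16, while its dim other probe did not pass, at -0.46 ± 0.28 and -0.70 ± 0.28. Plxnd1, the endothelial receptor of Sema3e, measured 7.93 and 9.07 in GSC colonies, 11.25 and 10.998 in sorted cells, and 10.02 and 10.05 in PGC colonies. All colony arrays were below the sorted pair, and the GSC arrays lay more than 1 log2 unit apart. It fell in both kinds of colony, at -2.63 ± 0.35 in GSC and -1.09 ± 0.35 in PGC colonies (limma adjusted p = 0.0012 and 0.042), and the latter call was lost without either sorted or either PGC colony array, without normalization, with median centring, with a background offset of 16 and with values floored at 32 in place of normexp. Endothelial markers moved beside it: 11 of 14 fell and Emcn and Cd34 rose in GSC colonies, all 14 fell in PGC colonies, and their summed intensity was 79600 to 81000 units in sorted cells, 50400 to 51200 in GSC and 20800 to 21700 in PGC colonies. Sox17 lay under the 30th percentile in both kinds of colony and Erg in every group. Sox17 was tested only because both sorted arrays reached the 30th percentile, so its calls are no support. The part of endothelial RNA in the Plxnd1 result was not tested. Plxnc1, the receptor of Sema7a, measured 13.24 and 12.999 in GSC colonies, 13.80 and 14.12 in sorted cells, and 12.41 and 12.67 in PGC colonies. It fell in both kinds of colony, at -0.84 ± 0.17 and -1.42 ± 0.17, and its other probe gave -1.10 ± 0.13 and -1.17 ± 0.13. Its call in GSC colonies was lost without normalization between arrays.

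Plxnb1, a receptor of Sema4d, fell in both kinds of colony, at -0.78 ± 0.12 in GSC and -0.79 ± 0.12 in PGC colonies, calls lost without normalization between arrays. Plxna4 rose by 0.97 ± 0.18 and 1.09 ± 0.18, and Plxna3 rose by 0.86 ± 0.11 in PGC colonies. Plxnb2 and Plxnb3 did not pass, with differences from -0.05 to 0.33. The GSC colony arrays disagreed on Plxna2, which measured 7.15 on replicate 1 and 10.57 on replicate 2, beside 10.15 and 9.90 in sorted cells and 11.20 and 11.36 in PGC colonies. Its SD in GSC colonies was 2.42, and no comparison of Plxna2 passed (SE 0.98 in each). Of 59 guidance genes, Plxna2 and Plxnd1 differed by over 1 log2 unit between the GSC colony arrays, beside 3.8% of all genes tested.

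Both tested Slit genes, ligands that repel migrating cells through Robo receptors, were higher in colonies. Slit2 measured 12.17 on both GSC colony arrays, 9.48 and 9.44 in sorted cells, and 12.90 and 12.94 in PGC colonies. Pairs agreed closely and the 3 groups did not overlap. Slit2 was 6.55-fold higher in GSC (2.71 ± 0.10, limma adjusted p = 6.3e-06) and higher still in PGC colonies (3.46 ± 0.10, limma adjusted p = 4.7e-06). Slit1 measured 11.79 and 11.91 in GSC colonies, 9.57 and 9.22 in sorted cells, and 11.995 and 11.73 in PGC colonies. It rose by 2.46 ± 0.16 and 2.47 ± 0.16. Of their receptors, Robo1 fell by 0.64 ± 0.16 in GSC colonies, a call lost without GSC colony replicate 2, without sorted replicate 2 and without normalization between arrays, and differed by 0.10 ± 0.16 in PGC colonies. Robo2 rose by 0.40 ± 0.13 and 1.03 ± 0.13, the smaller call being lost without any one GSC colony or sorted array.

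Netrin 1 and the netrin receptors Unc5b and Unc5c rose in both kinds of colony, while Unc5a and Unc5d were under the 30th percentile on all arrays. Unc5b, a receptor that triggers repulsion or, without ligand, cell death, measured 13.32 and 13.16 in GSC colonies, 10.15 and 10.07 in sorted cells, and 14.46 and 14.25 in PGC colonies. The sorted arrays were lowest and the PGC colony arrays highest, with no overlap between groups. Unc5b was 8.76-fold higher in GSC (3.13 ± 0.13, limma adjusted p = 8.1e-06) and 18.9-fold higher in PGC colonies (4.24 ± 0.13, limma adjusted p = 4.7e-06). Unc5c rose by 1.07 ± 0.12 and 1.27 ± 0.12. Ntn1 measured 9.40 and 9.32 in GSC colonies, 7.25 and 7.41 in sorted cells, and 9.10 and 9.42 in PGC colonies. Sorted cells were under the 30th percentile, and Ntn1 was at least 2.90-fold and at least 2.71-fold higher in GSC and PGC colonies. Ntn3 rose by 0.49 ± 0.12 and 1.09 ± 0.12, the first call being lost without GSC colony replicate 2 or either sorted array. Ntn4, a netrin of basement membranes, reached the 30th percentile in GSC colonies only, at least 1.34-fold above the other groups, and lay under the 30th percentile in sorted cells and PGC colonies. It measured 8.02 and 8.46 in GSC colonies, 7.33 and 7.23 in sorted cells, and 7.53 and 7.54 in PGC colonies. Ntn5, a further member of the netrin family, measured 7.91 and 7.93 in GSC colonies, 9.15 and 9.10 in sorted cells, and 8.42 and 8.22 in PGC colonies, and the 3 groups did not overlap. It fell in both kinds of colony, at -1.21 ± 0.12 and -0.81 ± 0.12. Its GSC colony arrays lay close to the 30th percentile.

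**Figure D3:**
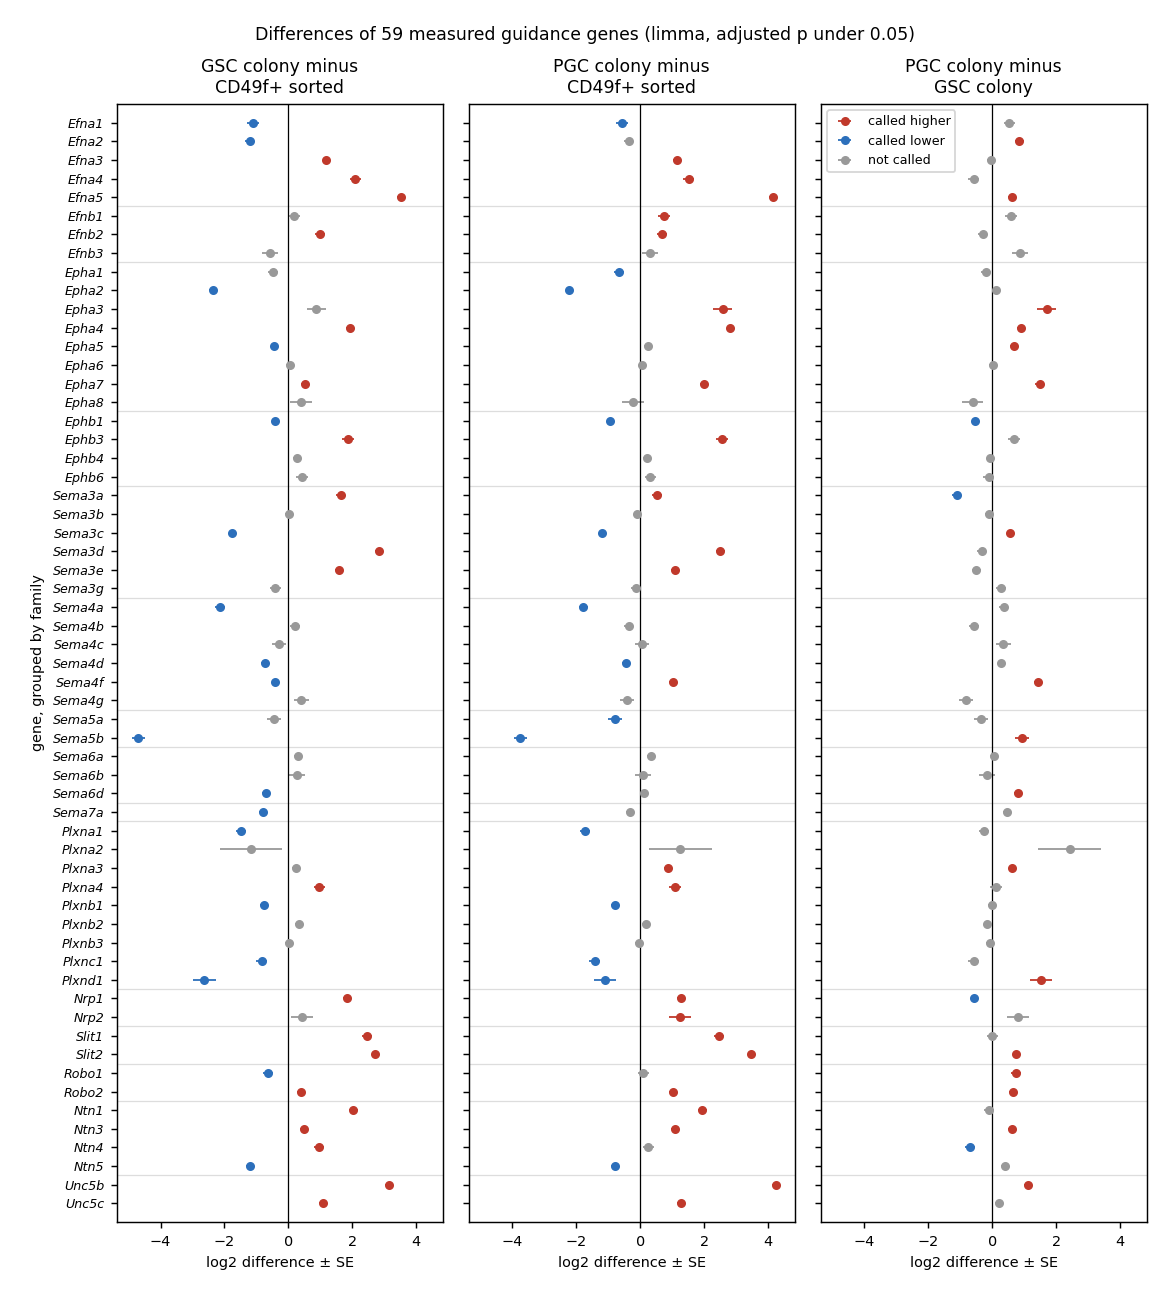
Log2 difference ± SE of the 59 tested guidance genes (rows, grouped by family with grey lines between families) in the 3 comparisons (columns); red and blue points were called higher and lower at a limma adjusted p under 0.05, and grey points were not called. Against sorted cells the differences run from -4.69 (Sema5b, GSC colonies) to 4.24 (Unc5b, PGC colonies), and between the colony groups from -1.11 (Sema3a) to 2.42 (Plxna2, not called).

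Markers of mesenchyme rose beside the genes that rose in colonies, and neural and glial markers were mixed. In each comparison with sorted cells, 13 of 14 tested fibroblast and mesenchyme markers rose and Vim did not pass, and Col1a1 lay under the 30th percentile in every group. Of 13 neural and glial markers, 7 rose and 3 fell in GSC colonies, and 7 rose and 2 fell in PGC colonies. Elavl4 and Tubb3 fell in both kinds of colony and Sox10 in GSC colonies. Of all genes tested, 22.5% rose and 24.5% fell in GSC colonies, and 22.8% rose and 23.2% fell in PGC colonies. The summed intensity of the neural and glial markers was 17600 to 18100 units in sorted cells, 26000 to 27300 in GSC colonies and 39200 to 40100 in PGC colonies. Nefl lay under the 30th percentile in GSC colonies and sorted cells, and S100b did so in sorted cells. Of 13 Sertoli markers, 12 fell in GSC colonies and all 13 in PGC colonies; Rhox5 lay under the 30th percentile in both and Amh in GSC colonies. Of 7 tested smooth muscle and myoid markers, 5 rose in GSC colonies, and in PGC colonies 4 rose and Myh11 fell. Of 5 Leydig markers, 3 fell in each kind of colony and Star rose in GSC colonies. Nefl was tested only through the PGC colony arrays and Rhox5 only through the sorted arrays, so their calls are no support. The part of these cell types in the guidance results was not tested.

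Other genes of the same pathways were followed as a list of 56 co-receptors, adaptors and cytoskeletal effectors, of which 53 were on the array and 51 tested. In GSC colonies 10 rose and 14 fell against sorted cells (47.1%), and in PGC colonies 12 rose and 13 fell (49%), beside 47.1% and 46% of all genes. With median centring the GSC split was 13 and 10, and without normalization between arrays the splits were 24 and 8 in GSC and 27 and 10 in PGC colonies. Dpysl3, a cytoskeletal mediator of semaphorin signals, rose by 3.40 ± 0.11 in GSC and 3.04 ± 0.11 in PGC colonies. Its relative Crmp1 was at least 3.46-fold and at least 5.85-fold higher, and Rgma, the repulsive guidance ligand of Neo1, rose by 2.59 ± 0.12 and 2.74 ± 0.12. Flrt1, a membrane protein whose family binds Unc5 receptors, fell at least 23.2-fold in GSC colonies and fell by 4.27 ± 0.11 in PGC colonies, where it measured 8.07 and 8.11 beside 12.33 and 12.39 in sorted cells. Tiam1, an exchange factor for the GTPase Rac, fell in both kinds of colony, at -2.39 ± 0.12 and -2.43 ± 0.12. Dpysl5 fell in both kinds of colony, at -2.71 ± 0.36 and -1.61 ± 0.36, and Kdr, the VEGF receptor of endothelium, fell in both kinds of colony, at -1.83 ± 0.23 and -1.70 ± 0.23. Of the other netrin receptors, Neo1 did not pass, at -0.27 ± 0.11 and -0.22 ± 0.11. Dcc measured 7.54 and 8.02 in GSC colonies, 7.64 and 7.40 in sorted cells, and 8.21 and 8.38 in PGC colonies. It was at least 1.39-fold higher in PGC colonies (limma adjusted p = 0.015) and did not pass in GSC colonies.

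PGC and GSC colonies were grown alike, so this comparison sets colonies from embryonic gonads beside colonies from testes of newborn mice. Stage and tissue differ together and cannot be told apart, and the embryos' sex is unstated. In PGC colonies 17 of 59 guidance genes were higher and 4 lower, or 35.6%, beside 15.1% of all genes tested (7.08% higher and 7.98% lower); these counts include Sema4f and Ntn4, whose calls are no support, as said above. The median difference was 0.20 over the guidance genes and 0.01 over all genes. The count of 21 fell whichever array was left out, and most of the 21 calls were lost in some of these fits. Sema4f was not tested without either PGC colony array, so its call cannot be said to hold in all of them. Of the list of pathway partners, 6 rose and 3 fell (17.6%): Chn2, a Rac-inactivating protein, rose by 1.93 ± 0.17, Srgap3 and Flrt3 by 0.94 ± 0.14 each, and Dpysl4, Limk1 and Ngef fell, at -1.16 ± 0.12, -1.13 ± 0.13 and -0.50 ± 0.12.

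Of the 8 tested receptors of the EphA type, 4 rose in PGC colonies over GSC colonies and 0 fell. Of all genes tested, 7.08% rose and 7.98% fell. Only the Epha4 and Epha7 calls held whichever array was left out. Epha7 rose by 1.48 ± 0.13 (limma adjusted p = 0.0010), a 2.79-fold difference with no overlap between the arrays given above. Epha3 rose by 1.71 ± 0.29 (limma adjusted p = 0.013), a call lost without either PGC colony array, and Epha4 by 0.90 ± 0.11. Epha5 measured 7.86 and 7.70 in GSC colonies and 8.46 and 8.47 in PGC colonies and rose by 0.68 ± 0.11, a call lost without GSC colony replicate 2. Among their ligands, Efna2 rose by 0.85 ± 0.15 and Efna5 by 0.61 ± 0.13; the Efna5 call was lost without any one colony array, and its other probe gave 0.69 ± 0.18 (not called).

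Unc5b rose by 1.11 ± 0.13 (limma adjusted p = 0.0026) and Slit2 by 0.75 ± 0.10 (limma adjusted p = 0.0049). Robo1 and Robo2 rose by 0.73 ± 0.16 and 0.64 ± 0.13, and Ntn3 by 0.61 ± 0.12. Slit1 differed by 0.01 ± 0.16. The Robo1 call was lost without GSC colony replicate 2 or either PGC colony array, the Robo2 call without any one GSC colony or sorted array, and the Ntn3 call without any one array other than PGC colony replicate 1.

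Among semaphorins and their receptors, Sema6d rose by 0.81 ± 0.12, Sema3c by 0.56 ± 0.10 (a call lost without either GSC colony array) and Plxna3 by 0.63 ± 0.11 (lost without GSC colony replicate 1 or PGC colony replicate 2). Sema5b rose by 0.94 ± 0.21, which became 0.62 without PGC colony replicate 1 and was not called without either sorted array. Plxnd1 rose by 1.53 ± 0.35 (limma adjusted p = 0.033), with 0.96 without GSC colony replicate 1 and 2.09 without replicate 2, and was not called without either PGC colony or either sorted array. Sema7a did not pass (0.48 ± 0.13), whereas its other probe gave a rise of 1.29 ± 0.13 (limma adjusted p = 0.0021). In the other direction, Sema3a was 2.16-fold lower in PGC colonies (-1.11 ± 0.15, limma adjusted p = 0.0048), and its arrays did not overlap. Nrp1 fell by 0.56 ± 0.10, whereas its other probe differed by -0.06 ± 0.14 and it was not called with the mean of both probes (-0.31), without either GSC colony array or without sorted replicate 1. Ephb1 fell by 0.53 ± 0.11, a call lost without any one array. Beside these, 10 of 14 macrophage and leukocyte markers and 8 of 13 neural and glial markers rose in PGC colonies, 1 neural marker fell, and 8 of 12 germ cell markers fell. Of smooth muscle and myoid markers 4 of 7 fell and 0 rose (Myh11 -3.64 ± 0.13), of fibroblast and mesenchyme markers 6 of 14 fell and 3 rose, and of endothelial markers 4 of 14 fell and 2 rose. Their part in these results was not tested. The marker counts include Zbtb16, Sohlh1, Pf4 and Nefl, whose calls are no support, as said above.

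Some of these genes are neighbours in the RefSeq gene order of GRCm38.p6, and neighbours did not always move together. Efna1, Efna3 and Efna4 follow each other on chromosome 3 with 0 protein-coding genes between them, and against sorted cells Efna1 fell in GSC colonies while Efna3 and Efna4 rose. On chromosome 5, Sema3d and Sema3a are adjacent, Sema3e follows after 3 genes and Sema3c after 15 more; the first 3 rose in GSC colonies and Sema3c fell. Robo1 and Robo2 are adjacent on chromosome 16, with Robo1 lower and Robo2 higher in GSC colonies than in sorted cells. In PGC over GSC colonies both rose, by 0.73 ± 0.16 and 0.64 ± 0.13. All of these Robo calls were lost without some arrays, as said above.

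**Figure D4:**
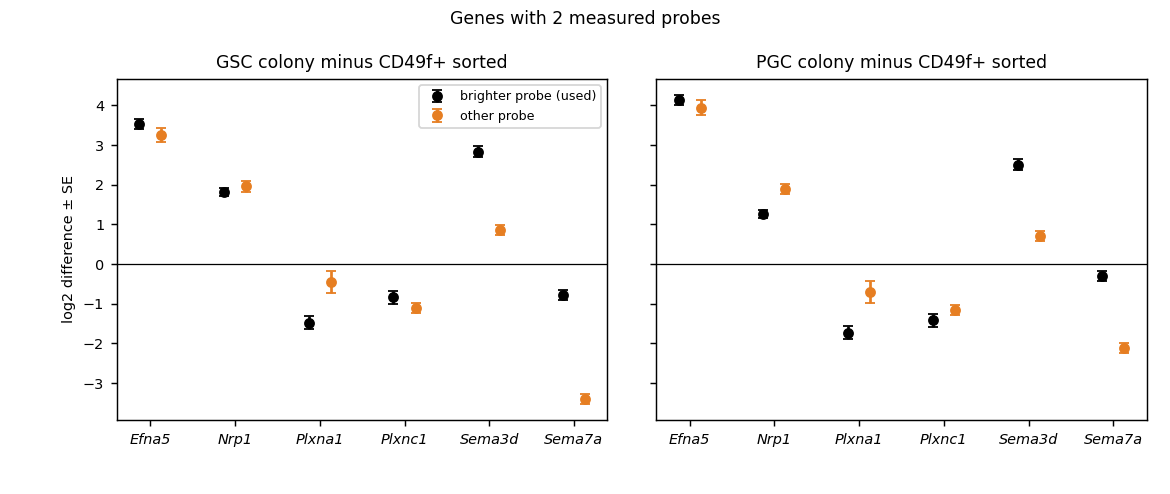
Log2 difference ± SE against CD49f+ sorted cells, in GSC colonies (left) and PGC colonies (right), for the 6 guidance genes that had 2 tested probes; black is the brighter probe, used in the text, and orange the other. All 6 genes have the same sign on both probes, Sema3d is 2.84 against 0.86 in GSC colonies, and Sema7a is -0.79 against -3.41.

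Of the 10 guidance genes with 2 probes, Epha7, Nrp2 and Plxna4 had a second probe too dim to be tested and Unc5d had none bright enough. The other 6 had the same sign on both probes in each comparison with sorted cells, as the plot of genes with 2 measured probes shows.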

How the data were processed

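Each of 6 arrays measured Cy5-labelled RNA amplified from total RNA, per the labels. The authors deposited 1 linear intensity per probe and array. How background was removed or values were scaled, and with which scanner, is not stated. Some deposited values lay below 0 on 4 arrays (310, 86, 474 and 52 probes). Probes were named through the platform table that came with the series, and all 66 guidance symbols matched RefSeq by gene identifier. Values were background-corrected (normexp, offset 50), log2 transformed and quantile normalized with limma 3.58.1 in R 4.3.3; the normexp step was placed before the log2 step because values below 0 have no logarithm. A gene with several probes was read from the brightest (by its 6-array mean). Genes with at least 2 of 6 arrays at or above the 30th percentile were tested (15459). All arrays entered 1 limma fit with group means, 3 residual degrees of freedom and no replicate block, with Benjamini-Hochberg adjustment over all genes tested. The number of arrays limits the precision. An exact permutation test of 2 arrays against 2 cannot reach the threshold and was not used. Where both arrays of a group lay under the 30th percentile, the fold is a lower bound against that level. Named were, per comparison, up to 10 genes higher and 10 lower among called genes without overlap, and up to 3 pathway partners each way; other genes are given more briefly, and further partners and markers were chosen after their values were seen. The members, gene lists and tests were chosen with earlier results of these data known. The fit was tested on simulated data.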

Additional observations from a re-analysis of the deposited data

How the results depend on the processing

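Alternatives were no normalization between arrays, median centring, a normexp offset of 16, values floored at 32 without normexp, no filter, a filter at the 50th percentile, the mean of a gene's probes, every probe tested, a fit without the third group, and leaving out each array. Leaving out each array in turn, the guidance genes called numbered 33 to 40 for GSC colonies against sorted cells, 12 to 19 for PGC against GSC colonies and 30 to 39 for PGC colonies against sorted cells; a group left with 1 array is assumed to vary like the others. Every other alternative kept these counts, and those of the pathway partners, within 1.5 times. The genes named per comparison were picked for large called differences, so a kept sign among them was likely in advance. Without normalization between arrays, 4 of 54 calls of these genes were lost. No guidance gene among the up to 10 rises and 10 falls named per comparison changed its sign, and calls among them were lost 1, 32 and 12 times in the comparisons in that order. Same-numbered arrays did not deviate together in every pair of groups: across probes, the difference of replicate 1 from replicate 2 correlated at -0.35 between GSC colonies and sorted cells, -0.22 between GSC and PGC colonies and 0.31 between sorted cells and PGC colonies, so the numbers were not taken to pair the arrays; with the GSC colony numbers crossed, all 3 correlations would be positive. With the replicate number as a block, 39, 17 and 36 guidance genes were called in the 3 comparisons in the order above. With the GSC colony numbers crossed, an alternative chosen after seeing the data, 40, 28 and 38 were called. No detection calls were used, so signal over background is known only through the 30th percentile.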
